A study of Mus musculus with 2 samples.

Results

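Cluster 1 was the largest of the 9 mRNA clusters that the deposited labels give for the type 2 conventional dendritic cells (cDC2s) of papain-immunized mice. These labels do not match the cDC2 subclusters described in the study's text, which are fewer, and how cluster 1 relates to those is not given in the sources used here. It was taken as every papain cell whose deposited mRNA cluster label carries the number 1. It held 1430 of the 6190 labelled papain cDC2s (23.1%, 95% exact Clopper-Pearson interval 22.1 to 24.2%), among 7596 papain cells with expression values and 11067 such cells in both libraries. The other 4760 labelled papain cDC2s were the comparison. CITEseq, which reads polyA RNA and DNA-barcoded antibodies in the same cell, had been run on sorted MHCIIhi CD11c+ B220- cells. The papain library came from the popliteal lymph nodes of B6 mice, 6 to 12 weeks old, 1 day after both rear footpads received 5 µg ovalbumin (OVA) and 50 µg papain, a protease allergen. The naive library came from unimmunized B6 mice of the same age range. The study's methods give it pooled skin-draining nodes, while the labels name popliteal or skin-draining nodes for both libraries alike. Each condition was thus 1 library, so library, node site and immunization cannot be told apart, and no test was made. Intervals cover counting error only.

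Migratory cDC2s carry antigen from the skin to the draining node, present it on MHC class II to CD4+ T cells, and shape the T cell response through costimulatory receptors, cytokines and chemokines. In mouse skin, part of them bear the lectin CD301b (the product of *Mgl2*), and the study asked how these cells drive T helper 2 differentiation. During maturation, dendritic cells gain CCR7 and costimulatory molecules, and they stop transcribing much of the antigen capture and MHC class II program.

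The surface readout came from 12 antibodies, each carrying a tag of 15 bases. The tags are shown for the antibodies that set cluster 1 apart and for the pair whose tags were identical in the deposited list.
CD301b: cttgccttgcgattt
CD11c: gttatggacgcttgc
I-A/I-E (MHC class II): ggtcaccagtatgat
CD8a: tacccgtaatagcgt
CD11b: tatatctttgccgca
CD24: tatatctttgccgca
CD11b and CD24 were listed with 1 and the same sequence, and the ratio of their recovered counts lay between 1.16 and 1.19 in all 9 clusters. They were therefore not read as separate proteins.

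Cluster 1 cells were mostly CD301b-high. By the authors' antibody classes, 885 of the 1430 cells were CD301b-high (61.9%, interval 59.3 to 64.4%), 451 were CD301b-int (31.5%, 29.1 to 34.0%) and 94 were CD301b-low (6.57%, 5.34 to 7.98%). Among the other labelled cDC2s the CD301b-high share was 42.2% (40.8 to 43.6%) and the CD301b-low share 28.9% (27.6 to 30.2%). The composition was not particular to cluster 1, since cluster 2 was 67.2% (64.5 to 69.7%) and cluster 5 was 65.7% (61.6 to 69.6%) CD301b-high, and the interval of cluster 1 overlapped that of cluster 5 but not that of cluster 2. The smallest CD301b-high share was 7.45% in cluster 4. Seen from the classes, cluster 1 took up 30.6% (28.9 to 32.3%) of the CD301b-high cells, 24.7% (22.7 to 26.7%) of the CD301b-int cells and 6.39% (5.20 to 7.77%) of the CD301b-low cells.

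**Figure D1:**
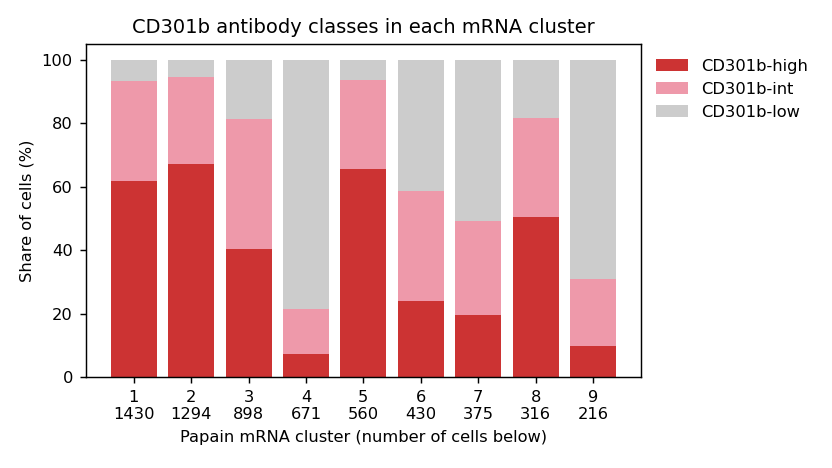
Share of cells in percent (stacked bars) of each CD301b antibody class in the 9 papain mRNA clusters, with the number of cells under each bar. Clusters 1, 2 and 5 are 61.9, 67.2 and 65.7% CD301b-high, and cluster 4 is 7.45%.

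Cluster 1 had high CD11c, low MHC class II and low CD8a values, further from cluster 2 than from cluster 5, the 2 clusters with larger CD301b-high shares. The deposited antibody values are on a centred log ratio scale: the count plus 1 is divided by the geometric mean of such values over the 12 antibodies of the cell, and the natural logarithm of 1 plus that ratio is taken. Each value is thus relative to the other antibodies. Antibodies to MHC class II, CD11c and CD301b were also those used, with fluorochromes, in the sort. The median CD11c value, for an integrin that marks dendritic cells, was 2.55 in cluster 1 (quartiles 2.16 and 2.97) and 2.03 in the others (1.49 and 2.53), and 81.9% of cluster 1 cells lay above the median of the others. Only cluster 9, at 2.62, had a higher median, and cluster 2, the other large CD301b-high cluster, had the lowest at 1.48. The median MHC class II value was 4.77 (4.47 and 5.02) against 5.16 (4.88 and 5.401), the lowest of the 9 clusters, which ran from 4.89 to 5.32 elsewhere. The median CD8a value was 0.206 against 0.376 and was also the lowest of the 9. Cluster 5 had medians of 2.30 for CD11c (quartiles 1.90 and 2.69), 4.89 for MHC class II (4.59 and 5.16) and 0.346 for CD8a (0.203 and 0.572). These quartile ranges overlapped those of cluster 1. CD301b itself had a median of 1.88 in cluster 1 and 1.41 in the others, below clusters 2 (2.08) and 5 (1.94).

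**Figure D2:**
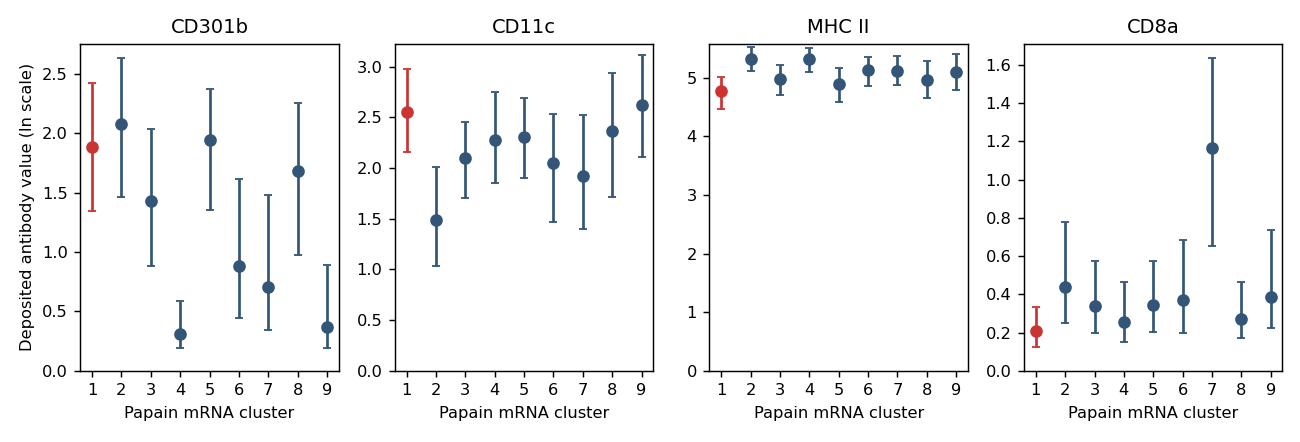
Deposited antibody values (natural log scale) of CD301b, CD11c, MHC class II and CD8a in the 9 papain mRNA clusters. Points are medians over cells and bars the quartiles, with cluster 1 in red, which has the lowest medians of MHC class II (4.77) and CD8a (0.206).

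The CD11c, MHC class II and CD8a differences were also present within each CD301b class. Among CD301b-high cells the median CD11c value was 2.59 in cluster 1 and 1.93 in the others, the MHC class II value 4.74 and 5.16, and the CD8a value 0.188 and 0.334. Among the 94 CD301b-low cells of cluster 1 the differences in median were 0.349, -0.392 and -0.128. As shares of all antibody counts, CD11c took 10.7% in cluster 1 and 5.32% in the others, and MHC class II 75.2% and 84.8%. The median number of MHC class II antibody counts per cell was 3189 and 3042, so the lower value in cluster 1 was one relative to the other antibodies. The median total of antibody counts per cell was 4105.5 and 3518.5. mRNA of the same proteins was lower for *Cd8a*, at 2.56 CPM (UMIs of the gene per 1000000 UMIs) against 17.1, and higher for *Itgax*, which encodes CD11c, at 30.5 against 12.2 CPM.

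The mRNA label was checked against cDC2 markers. *Sirpa*, which encodes CD172a, stood at 86.1 CPM, *Klf4* at 105 and *Irf4* at 49.7 (64.0, 111 and 81.6 in the other clusters), and the median CD172a antibody value was 1.98. *Cd209a* had 0 UMIs among 26558120, which allows up to 0.113 CPM, and *Clec10a*, *Itgam* and *Mgl2* were at 0.0753, 1.69 and 1.24 CPM. Surface CD301b was thus present in cells with almost no *Mgl2* mRNA, in cluster 1 and in the other papain clusters (0.798 CPM). Markers of lymphocytes were low in sum: 6.06 CPM over 10 B cell genes, 6.33 over 7 NK cell genes and 37.2 over 12 T cell genes (16.1, 2.94 and 101 in the others). Of the T cell sum in cluster 1, 22.9 CPM was *Tcf7*. The 14 macrophage and monocyte genes summed to 90.7 CPM in cluster 1 and 61.3 in the others, where single clusters ran from 27.9 to 185. Of the sum in cluster 1, 46.5 CPM was *Lyz2*, which was at 23.1 CPM without 1 cell that held 50.4% of its UMIs. Another cell held 69.2% of the *Plac8* UMIs. In the others 1 cell held 25.5% of the *Lyz2* UMIs. Genes of cDC1s and plasmacytoid dendritic cells summed to 469 and 415 CPM (504 and 454 in the others). Both sums were above the 244 CPM (259 in the others) of the 7 cDC2 genes, so sums of these lists do not set cDC2s apart. In the cDC1 sum *Irf8* gave 244 and *Batf3* 207 CPM. Stromal and neutrophil genes summed to 2.45 and 0.113 CPM (2.87 and 0.154). Only 3 of 10 stromal and epithelial genes and 1 of 8 neutrophil genes had values, so these 2 sums say little about such cells. Of the 8 Langerhans cell genes, which summed to 111 and 68.2 CPM, *Mfge8* gave 102 CPM and *Hapln3* was at 0. The part that other cells play in the results was not tested.

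Cells of cluster 1 were deep. Their median was 18323 UMIs (quartiles 16234 and 20505) and 3822 genes per cell, against 13593 UMIs and 3150 genes in the others, and between 7249 (cluster 8) and 30020 UMIs (cluster 5) over single clusters. Shares of cells with a UMI are therefore also given after thinning every cell to 8856 UMIs, a depth that 619 of the other cells did not reach. The median mitochondrial share was 2.18% and 2.94% of UMIs. A *Cd3e* or *Trac* UMI was found in 53 cells (3.71%) of cluster 1 and in 4.08% of the others. No barcode of cluster 1 was among the 2 that the libraries shared.

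Since the clusters were made from these mRNA values, the genes that set cluster 1 apart are a description of it. Of 7149 genes with at least 10 CPM in cluster 1 or in the others, 224 (3.13%) were at least 1.5-fold higher in cluster 1 and 191 (2.67%) at least 1.5-fold lower, on a scale of CPM plus 1 of summed UMIs. The median log2 ratio of all these genes was 0.05. With ratios scaled to that median the counts were 190 and 219, so the share of higher genes among those past the fold went from 54.0 to 46.5%.

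*Mucl1*, a small mucin-like protein, stood at 279 CPM (95% Poisson interval 273 to 285) in cluster 1 and 36.3 CPM (34.9 to 37.7) in the others, 7.51-fold higher. It was at 107 CPM in cluster 5, at 81.2 in cluster 8 and at 1.19 to 43.3 in the rest. The secreted protease gene *Htra1* was at 69.3 and 19.8 CPM, 3.38-fold higher. *Sod3*, the extracellular superoxide dismutase, was at 151 and 49.2 CPM, 3.02-fold higher. *Myof*, which acts in membrane fusion and repair, was at 71.5 and 23.1 CPM. *Ehf*, an ETS factor best known from epithelia, was at 183 and 73.1 CPM. *Rac2*, a small GTPase of blood cells, was at 57.4 and 23.3 CPM.

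*Il1rn*, the secreted IL-1 receptor antagonist, was at 70.9 CPM in cluster 1 and 29.7 in the others, with cluster 8 higher at 78.2. *Dnase1l3*, a secreted DNase, was at 317 and 143 CPM, and *Fxyd2*, a subunit that modulates the sodium pump, at 652 and 316. Together with *Ccl17*, *Ccl9* and *Ccl6*, described next, these are the 12 highest. For 10 of the 12, cluster 1 was above all 8 other clusters, the exceptions being *Il1rn* and *Ccl9* (191 CPM in cluster 8 against 141). These 12 genes summed to 3356 CPM in cluster 1, to 2178 in cluster 8, to 2112 in cluster 5 and to 363 in cluster 7.

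**Figure D3:**
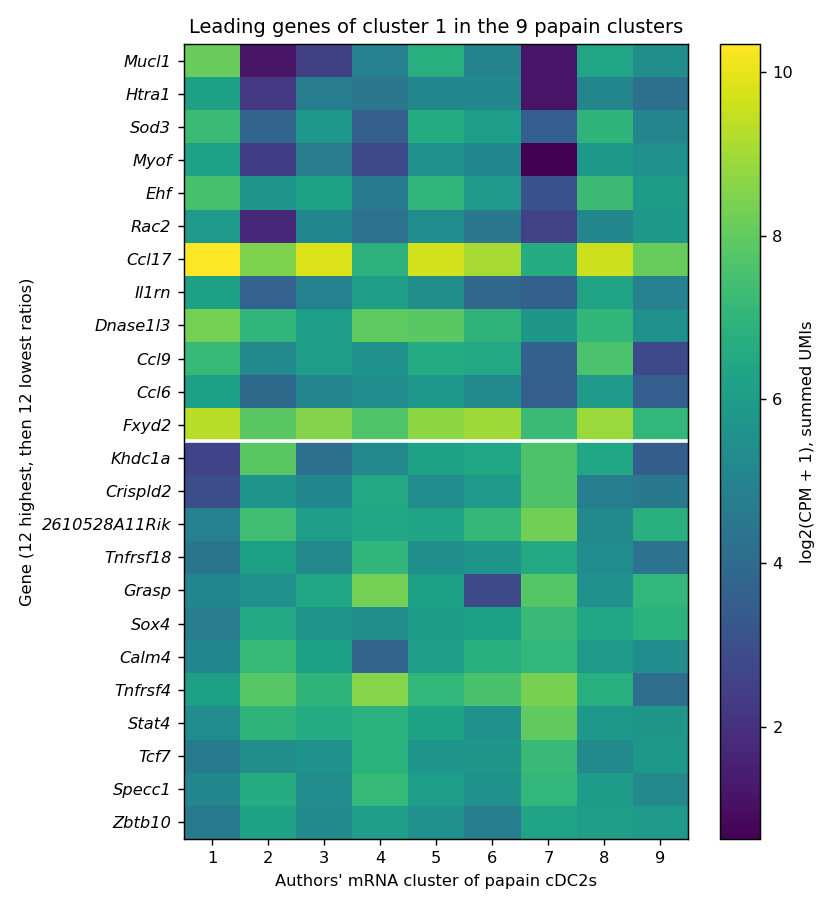
Level as log2 of CPM plus 1 (color) of the leading 12 genes in each direction (rows, the higher ones above the white line) in the 9 papain mRNA clusters (columns). In cluster 1 *Mucl1* is at 279 and *Khdc1a* at 4.93 CPM, and cluster 7 is nearly the reverse, with 1.28 and 194 CPM.

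The levels were carried by very different numbers of cells. *Ccl17* had a UMI in 1290 cells of cluster 1 (90.2%, interval 88.6 to 91.7%), a median of 14 UMIs in those cells, and a UMI in 63.9% of the others. *Mucl1* had a UMI in only 275 cells (19.2%, 17.2 to 21.4%), and the top 10% of cells held 96.3% of its UMIs. In those 275 cells the median was 9 UMIs and the maximum 439. In the others, 4.52% (3.94 to 5.15%) of cells had a *Mucl1* UMI, with a median of 2. After thinning, the *Mucl1* shares were 16.0 and 3.25% and the *Ccl17* shares 84.5 and 60.7%. For background, *Mucl1* had a UMI in 2.55% of 235 papain cDC1s (median 12399 UMIs per cell) and in 5.56% of 881 Langerhans cells (median 18290).

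Cluster 1 cells with and without *Mucl1* were alike in depth, with medians of 18134 and 18347 UMIs. Their median CD11c values were 2.68 and 2.51 and their median MHC class II values 4.58 and 4.80, so the cells with *Mucl1* lay further in the direction in which cluster 1 differed from the others. The CD301b-high shares were 65.1% (59.1 to 70.7%) and 61.1% (58.2 to 63.9%), with overlapping intervals.

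Among the 25 lists that are not cell type markers, chemokine genes had the largest share of members past the fold. Of 18 listed chemokine genes, 13 reached 10 CPM, and 9 of these were at least 1.5-fold higher in cluster 1 and none lower, with a median log2 ratio of 0.88. Over all genes 3.13% were higher and 2.67% lower. *Ccl17*, whose product attracts CCR4-bearing T cells such as T helper 2 cells, was at 1296 CPM (1282 to 1310) in cluster 1 and 546 CPM (541 to 552) in the others. It was at 899 CPM in cluster 3 and between 98.3 and 816 in the remaining 7. *Ccl22*, the other CCR4 ligand and a neighbor of *Ccl17* on chromosome 8, was at 1777 and 2004 CPM, and cluster 1 ranked below clusters 2, 3, 5 and 8. *Ccl9* and *Ccl6*, neighbors on chromosome 11 that signal through CCR1, were at 141 and 63.7 CPM and at 68.9 and 32.5 CPM. The neutrophil attractants *Cxcl1*, *Cxcl2* and *Cxcl3* were at 595, 242 and 23.2 CPM in cluster 1 and at 356, 131 and 8.76 in the others. *Ccl24*, an eosinophil attractant, was at 14.0 and 2.20 CPM and *Ccl3* at 12.05 and 3.44. *Cxcl9* passed the fold at 10.6 and 6.28 CPM, close to the 10 CPM limit. *Ccl5*, at 9265 and 7062 CPM the most abundant, *Cxcl16* and the interferon-induced *Cxcl10* did not pass it. Among CD301b-high cells alone, 7 chemokine genes were past the fold, against 3.21% of all genes.

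Promoters of 3 of these genes are shown, the 250 bases before the start of transcription on the gene's strand, from RefSeq on GRCm38.p6. Capitals mark a STAT6-type motif (TTC, 4 bases of any kind, GAA) in *Ccl17* and the NF-kB (kappa B) consensus in *Cxcl3* and *Ccl9*, both searched on both strands. The windows are chr8:94810203-94810452 (+) for *Ccl17*, chr5:90785851-90786100 (+) for *Cxcl3* and chr11:83578637-83578886 (-) for *Ccl9*.
Ccl17: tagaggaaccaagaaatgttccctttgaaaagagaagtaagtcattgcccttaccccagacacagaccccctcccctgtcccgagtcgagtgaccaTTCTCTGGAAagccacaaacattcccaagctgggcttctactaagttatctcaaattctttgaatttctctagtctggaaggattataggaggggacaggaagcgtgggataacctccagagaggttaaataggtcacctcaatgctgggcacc
Cxcl3: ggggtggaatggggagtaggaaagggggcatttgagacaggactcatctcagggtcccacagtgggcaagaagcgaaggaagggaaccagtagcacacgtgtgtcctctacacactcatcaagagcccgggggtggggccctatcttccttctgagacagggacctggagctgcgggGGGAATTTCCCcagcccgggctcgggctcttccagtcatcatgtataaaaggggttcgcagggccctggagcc
Ccl9: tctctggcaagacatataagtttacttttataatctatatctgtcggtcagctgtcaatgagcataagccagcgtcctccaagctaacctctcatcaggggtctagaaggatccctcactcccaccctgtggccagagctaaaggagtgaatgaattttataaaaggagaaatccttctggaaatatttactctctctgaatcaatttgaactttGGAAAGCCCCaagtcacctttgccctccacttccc
The *Ccl17* match began 154 bases before the start. The *Cxcl3* capitals are 2 overlapping matches on opposite strands, which began 73 and 72 bases before the start, and the *Ccl9* match began 35 bases before it. Of the 12 chemokine genes with an entry, 5 held a kappa B match (*Ccl9*, *Cxcl1*, *Cxcl2*, *Cxcl3* and *Cxcl10*), and 4 of these were among the 8 that were higher in cluster 1. Of all 32851 promoter windows of this length, 7.25% held one. The STAT6-type motif was in *Ccl17* alone, and in 5.85% of all windows. A match is a run of letters and not a shown site.

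The genes with the lowest ratios included receptors of the TNF family and transcription factors. *Khdc1a* was at 4.93 CPM (4.12 to 5.85) in cluster 1 and 110 CPM (108 to 113) in the others, 18.8-fold lower, with a UMI in 3.85 and 25.4% of cells. It reached 231 CPM in cluster 2, and its lowest level elsewhere was 10.4 CPM, in cluster 9. *Crispld2*, a secreted protein, was 7.61-fold lower, at 6.85 and 58.8 CPM, and 2610528A11Rik was 4.18-fold lower, at 28.1 and 121 CPM. *Tnfrsf4* (OX40) was at 70.9 and 191 CPM and *Tnfrsf18* (GITR) at 20.3 and 59.9, both receptors better known on T cells. *Stat4*, which relays IL-12, was at 39.6 and 105 CPM. *Sox4* and *Tcf7*, transcription factors of lymphocyte development, were at 26.2 and 74.9 CPM and at 22.9 and 60.6 CPM. *Grasp*, *Calm4*, *Specc1* and *Zbtb10* complete the 12, with fold differences from 2.21 to 2.84. Cluster 1 was the lowest of the 9 clusters for 8 of the 12. Below it were cluster 9 for *Tnfrsf18* (19.2 CPM) and *Tnfrsf4* (16.3), cluster 6 for *Grasp* (5.87) and cluster 4 for *Calm4* (12.9).

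Most members of the maturation list lay slightly below the other clusters. Of 29 maturation and migration genes at 10 CPM or more, 3 were past the fold upward and 4 downward, and the median log2 ratio was -0.19. Over all genes the shares were 3.13% upward and 2.67% downward. *Aldh1a2*, the retinoic acid synthesizing enzyme, was at 38.7 and 16.0 CPM. The costimulatory ligand genes *Cd80* and *Icosl* were at 36.2 and 77.3 CPM and at 56.0 and 97.2 CPM. In the regulatory dendritic cell list 3 of 10 were higher, among them *Itgb8*, a TGF-beta activating integrin chain, at 32.3 and 10.3 CPM, and *Ptgs2*, the prostaglandin synthase COX-2, at 116 and 66.9. *Cd274* (PD-L1) was at 197 and 285 CPM.

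Interferon-stimulated genes were higher by small amounts. The list counts of this paragraph stand beside 3.13% of all 7149 genes past the fold upward and 2.67% downward. Of 23 genes at 10 CPM or more, 6 were past the fold upward and none downward, 19 had a ratio above 0, and the median log2 ratio was 0.41. *Irf7* was at 29.2 and 16.3 CPM and *Ifit1* at 32.9 and 19.9. *Isg15* was at 298 and 198 CPM, while cluster 4 reached 602. With a pseudocount of 10 CPM in place of 1, none of the 23 was past the fold, with a median of 0.31. Of 15 glycolysis and hypoxia genes 3 were past the fold, *Eno1* (70.9 and 40.5 CPM), *Tpi1* (74.0 and 45.3) and *Hif1a* (67.7 and 44.6), with a median of 0.45. In the list of endosome and lysosome genes 4 were higher and 1 lower, including *Cstb*, an inhibitor of cathepsins, at 844 and 410 CPM, *Psap*, a lysosomal activator protein, at 580 and 316, and *Ctsc* (cathepsin C) at 159 and 278. In the cDC2 lineage list 2 of 12 genes were higher and 1 lower, *Itgax* and *Cebpb* (39.1 and 16.0 CPM) against *Irf4*. Of 9 cytokine genes, *Il1rn* and *Csf1*, the macrophage growth factor (106 and 58.4 CPM), were higher and *Il12b* (29.5 and 48.3) lower. Of 11 chemokine receptor and adhesion genes 3 were higher, and of 20 genes of the type 2 response 2 were higher and 1 lower. Counts of 1 or 2 members in this paragraph are not read as a result about a list. Of 16 NF-kB genes 1 was higher, *Tnfaip2* (324 and 194 CPM), as was 1 of 10 cell cycle genes, *Mki67* (131 and 77.0), and 1 of 14 heat shock genes, *Hspa1a* (142 and 87.5). Among 3 C-type lectins, 4 TNF ligands and 21 actin and cytoskeleton genes, 1, 1 and 2 were higher, and of 18 Bcl2 family and survival genes 2 were lower. None of 19 MHC class I, 21 immediate early, 15 cholesterol, 26 oxidative phosphorylation or 24 ribosomal protein genes passed the fold in either direction. Nor did *Il2ra*, *Il2rg*, *Il15* and *Il15ra*, the 4 genes at 10 CPM or more in the list of IL-2 and its receptor. *Il2* and *Il2rb* were under 10 CPM and were not counted.

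MHC class II genes were lower than in the pooled others, among which clusters 4 and 7 (671 and 375 cells) were very high. Of 10 genes, 4 were past the fold downward, beside 2.67% of all genes. These were *Ciita*, the class II transactivator, at 3.69 and 14.8 CPM, *H2-DMb2* at 8.02 and 27.0, *H2-DMa* at 26.5 and 50.4, and *H2-Ab1* at 426 and 713. *H2-Ab1* was at 3149 CPM in cluster 4 and 1679 in cluster 7, and cluster 1 was the fifth highest of the 9. Without clusters 4 and 7 none of the genes was past the fold and the log2 ratio of *H2-Ab1* was 0.21, and among CD301b-high cells none was past it and the ratio was 0.04. Among CD301b-high cells the median of the list was 0.01, beside the lower MHC class II antibody value given above.

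**Figure D4:**
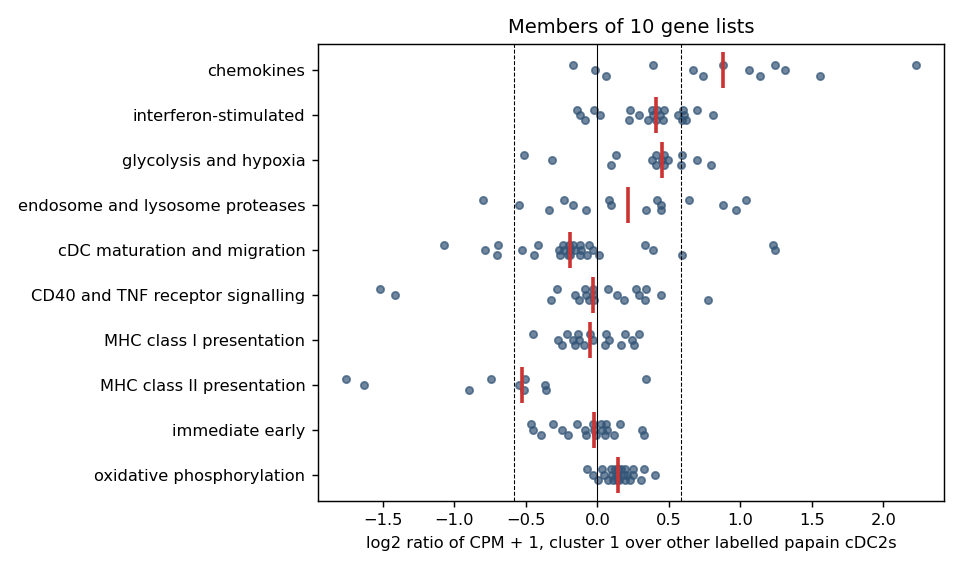
Log2 ratios of CPM plus 1, cluster 1 over the other labelled papain cDC2s, for members of 10 gene lists with at least 10 CPM (points), with the median of each list (red bar) and the 1.5-fold limits (dashed lines). The chemokine median is 0.88 and that of MHC class II presentation is -0.53.

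Cluster 5 and then cluster 3 were most like cluster 1. Against cluster 5, 55 genes (0.765%) were at least 1.5-fold higher and 113 (1.57%) lower, against cluster 3 365 (5.18%) and 84 (1.19%), and against the other 6 clusters 1078 to 2498 genes in both directions together. The counts of 2460 and 2498 were those of clusters 8 and 9, the smallest at 316 and 216 cells, where counting error is larger. Cluster 5 shared the CD301b-high make-up and had deeper cells, of which 9.46% held a *Cd3e* or *Trac* UMI. Among the genes furthest from cluster 1, cluster 5 had *Mucl1* at 107 CPM, *Htra1* at 32.8 and *Il1rn* at 41.9, and with *Khdc1a* at 73.9, *Sox4* at 63.0 and *Tcf7* at 52.1. *Sod2*, the mitochondrial superoxide dismutase, was at 114 CPM in cluster 1 and 70.9 in cluster 5. Against cluster 3, *Mucl1* was at 279 and 4.59 CPM and *Dnase1l3* at 317 and 64.2. *Il12b*, a subunit of IL-12, was at 29.5 CPM in cluster 1 and 83.9 in cluster 3, and *Prnp*, the prion protein gene, at 53.8 and 139.

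Within cluster 1, the 885 CD301b-high and 94 CD301b-low cells differed in *Ptgs2*, *Dusp2*, *Egr1* and *Mucl1*, among others. Of 7284 genes, 296 (4.06%) were at least 1.5-fold higher in CD301b-high cells and 293 (4.02%) lower, and the medians of 18095 and 19226 UMIs per cell were close. The 94 CD301b-low cells hold few summed UMIs, however, so counting error can move genes of low level past the fold. How many of these genes it moved was not tested. *Ptgs2* was at 136 CPM (130 to 142) in CD301b-high and 45.7 CPM (36.5 to 56.6) in CD301b-low cells. *Dusp2*, a phosphatase of MAP kinases, was at 514 and 204 CPM, *Tnfsf9* (the 4-1BB ligand) at 205 and 88.2, and *Egr1*, an immediate early factor, at 205 and 89.8. *Mucl1* was at 314 and 125 CPM and *Dnase1l3* at 380 and 176. In CD301b-low cells *Mucl1* had a UMI in 11 of 94 cells, and 1 cell held 23.5% of its UMIs. For *Dnase1l3* 1 such cell held 25.1%. Without the top cell of each class, *Mucl1* was at 287 and 97.3 CPM and *Dnase1l3* at 376 and 133. *Ccl17*, at 1241 and 1367 CPM, and *Khdc1a*, at 3.70 and 3.81, were near each other in the 2 classes.

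The largest differences in the other direction rested on single cells. *Lyz2* was at 409 CPM in CD301b-low and 25.2 in CD301b-high cells, but 1 of the 94 CD301b-low cells held 623 of the 751 UMIs, and without it the level was 70.7 CPM. For *Ccl4* and *Plac8* the top CD301b-low cell, not the *Lyz2* cell, held 95.8 and 96.7% of the UMIs of that class. The *Lyz2* cell held 87.6% of those of *Lpl*. *Cxcl10*, at 89.3 and 22.7 CPM, had 65.2% of its UMIs in 1 CD301b-low cell. *Gm13546*, at 71.9 and 27.9 CPM, was spread over 46 of the 94 cells.

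Against the 2024 labelled naive cDC2s, cluster 1 had higher interferon-stimulated genes and lower MHC class II genes. Of 7430 genes, 924 (12.4%) were at least 1.5-fold higher and 756 (10.2%) lower. With ratios scaled to their median of 0.08 the counts were 679 and 921, so the share of higher genes among those past the fold went from 55.0 to 42.4%. *Isg15* was at 298 CPM in cluster 1 and 40.1 in naive cells, and the other papain clusters were at 198. In the interferon-stimulated list, 17 of 23 genes were higher and none lower, with a median log2 ratio of 1.14. *Serpinb1a*, a protease inhibitor, was at 571 and 134 CPM, *Fabp4*, a fatty acid binding protein, at 199 and 34.7, *Mrpl38*, of the mitochondrial ribosome, at 366 and 76.6, and *Gvin1*, an interferon-inducible GTPase, at 56.3 and 12.6. *Htra1* (9.84 CPM in naive cells), *Mucl1* (43.1) and *Sod3* (35.5) completed the 8 highest. In the MHC class II list 11 of 12 genes were lower in cluster 1, with a median of -2.27. The pooled other papain clusters shared both shifts. The MHC class II list summed to 18957 CPM in naive cells, 9924 in the others (5001 to 26724 over single clusters) and 7560.5 in cluster 1. The interferon-stimulated list summed to 1342, 2298 (1467 to 3945) and 2816 CPM. *Mgl2* was at 1.24 and 44.9 CPM.

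Most of the genes furthest below naive cells had their naive level in 1 naive cluster. *Lyz2* was at 46.5 CPM in cluster 1 and 622 in naive cDC2s, of which naive cluster 5 (246 cells) had 3763. *Lyz1*, *Plbd1*, *Retnla*, *Ccl4* and *Gm2a* were also highest in naive cluster 5, with 405, 466, 464, 562 and 1259 CPM. *Cd53* and *H2-DMb2* completed the 8 lowest. *Mgl2* was likewise at 276 CPM in naive cluster 5 and at 1.88 in naive cluster 1. Without naive cluster 5, *Lyz2* was at 33.2 CPM in naive cells, below cluster 1. However, 1 cell held 50.4% of the *Lyz2* UMIs of cluster 1, which was at 23.1 CPM without it. Without naive cluster 5, 10 MHC class II genes were still lower, with a median of -1.05, and 18 interferon-stimulated genes higher, with a median of 1.02. Over all 7334 genes in this setting, 8.36% were lower and 13.3% higher.

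The leading genes of cluster 1 were also compared between clusters of the naive library, whose values did not choose them. Its cluster labels are numbered apart, in a column whose header marks the clustering as split. Naive cluster 1 (536 cells, numbered apart from the papain clusters) was above the rest of the naive cDC2s in 11 of the 12 highest genes and below them in 12 of the 12 lowest, with median log2 ratios of 0.82 and -0.90. The share of all genes above or below the rest was not taken, so these counts have no background beside them. No other naive cluster had more than 7 of the 12 highest above the rest, but naive clusters 4, 5 and 6 had 9, 10 and 9 of the 12 lowest below it. *Mucl1* was at 109 CPM in naive cluster 1 and 8.89 in the rest, *Ccl17* at 701 and 158, *Sod3* at 71.5 and 16.7, and *Khdc1a* at 14.1 and 63.3. *Ccl6* was the exception, at 33.6 and 73.4 CPM. *Mucl1* was higher still, at 221 CPM, in the 55 cells of naive cluster 6. Naive cluster 1 also had the fewest genes past the fold against papain cluster 1, 1117 of 7248 (15.4%). The other naive clusters had 2227 to 4352 (30.0 to 55.3%). Naive clusters 6 and 7, with only 55 and 50 cells, had 55.3 and 49.1%. Counting error is largest in such small sums, and its part in these counts was not tested. Its CD301b-high share was 53.4% (49.0 to 57.6%), the largest in the naive library, with an interval that overlapped those of naive clusters 2 and 6, and its median CD11c value 2.67 against 2.17 over all naive cDC2s. Between papain cluster 1 and naive cluster 1, *Mucl1*, *Htra1* and *Sod3* were higher in papain cells (279, 69.3 and 151 CPM against 109, 19.6 and 71.5), while *Ehf* was not (183 against 225).

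**Figure D5:**
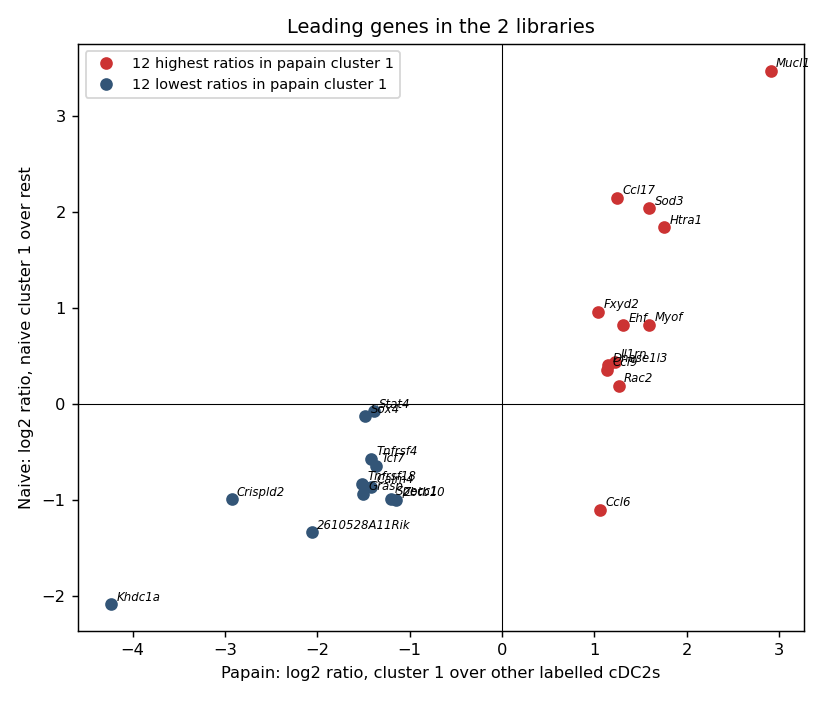
Log2 ratios of CPM plus 1 for the 12 highest (red) and 12 lowest (blue) genes of papain cluster 1, in the papain library (x axis, cluster 1 over other labelled cDC2s) and in the naive library (y axis, naive cluster 1 over the rest). All points but *Ccl6* lie on the same side of 0 on both axes, and the papain axis is the one on which the genes were chosen.

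*Il2*, the cytokine on which the study turned, did not distinguish cluster 1. A UMI was found in 111 of the 1430 cells (7.76%, interval 6.43 to 9.27%) and in 285 of the 4760 others (5.99%, 5.33 to 6.70%), with median depths of 18323 and 13593 UMIs. In CPM the levels were 4.56 (3.78 to 5.44) and 4.10 (3.64 to 4.60), with overlapping intervals, and after thinning the shares were 3.84 and 3.64%. Single clusters ran from 2.96 to 5.16 CPM, and naive cDC2s were at 3.84 (3.18 to 4.60). Papain Langerhans cells had a UMI in 9.08% (7.27 to 11.2%) and cDC1s in 4.68% (2.36 to 8.22%), with median depths of 18290 and 12399 UMIs. In CPM the order of these 2 was the reverse, at 4.47 and 10.1, the latter from 11 of 235 cDC1s with a UMI. The share that free RNA gives was not measured in a cell type that lacks *Il2*. *Il2ra* (CD25) was at 107 and 135 CPM and *Il2rg* at 83.2 and 95.8. *Cd40*, whose product receives the T cell signal, was at 854 CPM (843 to 865) in cluster 1 and 677 (671 to 683) in the others, between 118 in cluster 9 and 1042 in cluster 8. The gap was smaller among CD301b-high cells alone, with *Cd40* at 899 and 817 CPM. Of 21 genes of CD40 and TNF receptor signalling, 1 was past the fold upward (*Tnip3*, 35.1 and 20.1 CPM) and 2 downward, *Tnfrsf4* and *Tnfrsf18*. Over all genes 3.13% were past it upward and 2.67% downward.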

How the data were processed

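CITEseq data of 1 naive and 1 papain library were analysed, with groups taken from the sample labels and cluster labels from the deposited expression file. Per the submitters' processing notes, Cell Ranger 3.0.1, mm10 and Partek were used. The authors deposited log2 values of CPM plus 1 for 18049 genes. UMIs were recovered from them, and 100% of values up to 50 UMIs were whole within 0.02. Genes per cell were deposited as counts, the total column of the expression file was deposited as a score (a sum of log2 values), and the mitochondrial column was deposited as a percent of that sum, so it was replaced by shares of UMIs. For antibodies the authors deposited centred log ratios on a natural log scale, with total counts, and single counts came out within 0.0342 of whole numbers.

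Group levels are UMIs added up across cells and divided by all UMIs of those cells. Ratios were log2 of CPM plus 1. Past the fold means at least 1.5-fold, with 10 CPM or more on the higher side. The totals were 26558120 UMIs in cluster 1, 71460187 in the other labelled papain cDC2s and 30982140 in naive cDC2s. Shares have exact Clopper-Pearson intervals and CPM exact Poisson intervals, both at 95%. Thinned shares are expected values at 8856 UMIs, the 10th percentile of depth. The functions were tested on simulated counts. No doublet caller was used, and cells with a *Cd3e* or *Trac* UMI were left out as an alternative.

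Named genes were the 12 highest and 12 lowest ratios of at least 50 CPM, up to 4 members of each list by size of ratio, the 5 highest and 5 lowest against the nearest clusters, the 8 highest and 8 lowest against naive cDC2s, the 6 highest and 6 lowest between CD301b classes, and *Il2*, *Il2ra*, *Cd40* and *Mgl2*. Further members of the chemokine, MHC class II, interferon and marker lists were named after their values were seen. Of 574 genes in 25 lists and 10 marker lists, 545 were in the files. The cluster, the gene lists and the rules were chosen with earlier results of these data known. Promoter sequences are from RefSeq (GRCm38.p6). Python 3 with numpy, scipy, pandas and matplotlib was used.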

Additional observations from a re-analysis of the deposited data

How the results depend on the processing

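No paired analysis was possible because each condition is 1 library without a replicate number, so no library could be left out. Of 7149 genes, 224 higher and 191 lower against the other papain cDC2s became 101 and 96 with a pseudocount of 10 CPM, 444 and 518 with a limit of 1 CPM, and 52 and 54 at 2-fold. Without cluster 5, an alternative chosen after seeing the data, they were 336 and 228. Against naive cDC2s, 924 higher and 756 lower became 527 and 512 with a pseudocount of 10 CPM, 1285 and 2066 with a limit of 1 CPM, and 209 and 352 at 2-fold. Against naive cluster 1 only, chosen after seeing the data, they were 621 and 496. With tertiles of the CD301b value, cluster 1 was 44.3% high, 40.8% intermediate and 14.8% low. Without cluster 5, the other cells were 39.0% CD301b-high and 31.9% CD301b-low. On the log2 of the share of antibody counts, the differences in median were 1.17 for CD11c, 1.17 for CD301b and -0.18 for MHC class II. On the deposited scale, the differences among CD301b-high cells were 0.66 for CD11c, -0.0051 for CD301b and -0.0173 for CD172a. This group was chosen after seeing the data. Over all cells they were 0.521, 0.468 and 0.0852, so CD301b and CD172a turned direction. CD301b was the value that defined the CD301b-high cells. For CD172a the cause was not tested. *Il2* was found in 0.699% of cluster 1 cells at 2 UMIs or more and in 3.84% after thinning, and in 5.17% of the other cells without cluster 5. *H2-Ab1* turned direction to a log2 ratio of 0.0375 among CD301b-high cells and 0.206 without clusters 4 and 7. *Lyz2* against naive cells turned to 0.475 without naive cluster 5 and 0.571 against naive cluster 1. Both rest on 1 cell of cluster 1, without which its level was 23.1 CPM, below 33.2 and 31.0 CPM in those naive cells. Dropping cells with *Cd3e* or *Trac* UMIs, dropping the deepest 5% of cells, or taking the mean over cells moved no count over all genes by more than 1.5 times. With the mean over cells, the MHC class II genes lower than in the other papain cDC2s went from 4 to 7 and the interferon-stimulated genes higher from 6 to 3. Genes under 10 CPM and shares of cells with a UMI are limited by depth, and the spread between mice is unknown.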
